A study of Mus musculus with 6 samples.

Results

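Mitochondrial chaperones and proteases fold imported proteins and degrade damaged ones inside mitochondria. These 10 genes are Hspd1, Hspe1, Hspa9 and Trap1, which encode chaperones, and Lonp1, Clpp, Clpx, Yme1l1, Afg3l2 and Htra2, which encode proteases or their unfoldase. They were chosen by gene symbol as effectors of the mitochondrial unfolded protein response, and were proposed with earlier results of these data known. Each of the 10 symbols had 1 line among the 40428 features of the count table, and no line was an exact repeat. All 10 were also among the 19272 features tested.

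The libraries came from the subcutaneous white fat of 3 ANKO and 3 control mice on the C57BL/6J background, kept on regular chow at room temperature. ANKO mice carry floxed Nampt alleles and an adiponectin-Cre transgene, which removes Nampt in adipocytes only, while the other cells of the depot keep the gene. Control mice are labelled flox/flox. The sources used here give neither age nor sex. Nampt, the rate-limiting enzyme of NAD synthesis by salvage from nicotinamide, averaged 48.6 ± 1.59 CPM (read counts scaled to library size) in ANKO and 87.9 ± 4.77 CPM in control libraries (SD, n = 3 each; log2 fold change -0.85, edgeR adjusted p = 0.00416), in the direction of the genotype labels. Library totals were 19748962 to 23860596 counts. The 12 adipocyte markers, of which 5 passed the test as lower and none was at 0, made up 0.778% to 0.943% of the counts in ANKO and 1.79% to 2.57% in control libraries. Cfd (1148 and 6970 CPM in ANKO and control) and Car3 (2170 and 6515 CPM) had the highest control values of the 12. The summed share therefore leans on them. Slc2a4 averaged higher in ANKO (log2 fold change 0.15). In bulk tissue, fewer cells of a type, less RNA per cell and a change of single marker genes cannot be told apart. Skeletal muscle RNA differed between libraries within both groups. The 18 tested genes of the 19 muscle markers, of which none was at 0 and none passed the test, summed to 19101, 3314 and 105 CPM in ANKO 1 to 3 and to 6317, 1607 and 9954 CPM in controls 1 to 3.

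Most mitochondrial proteins are made in the cytosol and enter the organelle unfolded. Hspa9 (mortalin) pulls them into the matrix and the Hspd1-Hspe1 chamber (Hsp60 with its lid Hsp10) folds them, while Lonp1 and the Clpp-Clpx complex degrade misfolded matrix proteins. Yme1l1 and Afg3l2 are proteases of the inner membrane that face the intermembrane space and the matrix, and Htra2 (Omi) works in the intermembrane space. Trap1 is the mitochondrial member of the Hsp90 family. In the mitochondrial unfolded protein response, stress in the organelle raises the transcription of such genes, and in mammals Atf4, Atf5 and Ddit3 (CHOP) are the transcription factors tied to it.

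Hspd1 and Hspe1 lie next to each other on opposite strands and their promoter windows overlap, so their start region is shown first. RefSeq windows of GRCm38.p6 reach 250 bases before to 50 bases after each start site, and 7 of the 10 genes had one. Hspa9, Afg3l2 and Htra2 had none. The Hspe1 window, chr1:55087898-55088197 on the plus strand, shares 285 bases with the window of 1 of the 2 Hspd1 starts, which lies on the minus strand 216 bases before the Hspe1 start. The other Hspd1 start lies 95 bases after the Hspe1 start. The capitals mark heat shock elements, searched as TTCNNGAA and as GAANNTTC, each its own reverse complement.
Hspe1: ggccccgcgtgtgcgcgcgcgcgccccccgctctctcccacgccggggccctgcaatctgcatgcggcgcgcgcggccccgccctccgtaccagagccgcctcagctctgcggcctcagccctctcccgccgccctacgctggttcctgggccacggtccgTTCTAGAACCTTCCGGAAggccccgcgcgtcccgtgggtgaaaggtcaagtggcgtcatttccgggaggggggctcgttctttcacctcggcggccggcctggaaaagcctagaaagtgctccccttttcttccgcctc
Trap1 and Lonp1 follow because they had the smallest p-values of the 10 and differed in opposite directions. The windows are chr16:4077761-4078060 and chr17:56626854-56627153, both on the minus strand and read 5′ to 3′ along the gene. The capitals in Trap1 mark a cAMP response element, searched as TGACGTCA, and Lonp1 has none because no motif searched matched there.
Trap1: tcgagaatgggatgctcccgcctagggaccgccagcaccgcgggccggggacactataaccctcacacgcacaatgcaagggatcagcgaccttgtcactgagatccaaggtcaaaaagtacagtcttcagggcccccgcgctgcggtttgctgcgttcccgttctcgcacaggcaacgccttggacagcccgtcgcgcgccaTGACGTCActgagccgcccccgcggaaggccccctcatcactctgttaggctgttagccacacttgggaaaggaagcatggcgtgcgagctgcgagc
Lonp1: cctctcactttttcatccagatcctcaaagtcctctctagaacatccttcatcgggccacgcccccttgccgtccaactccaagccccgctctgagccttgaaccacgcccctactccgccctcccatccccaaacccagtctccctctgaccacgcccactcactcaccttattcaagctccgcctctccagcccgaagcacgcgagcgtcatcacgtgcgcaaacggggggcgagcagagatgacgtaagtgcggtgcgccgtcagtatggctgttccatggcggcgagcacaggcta
In the Hspe1 window 2 matches to TTCNNGAA, at bases -89 to -82 and -79 to -72 from the start, overlapped 1 match to GAANNTTC at -84 to -77. The Clpp window, not shown, also held 1 match to TTCNNGAA, at bases 33 to 40 from the start. Of 32851 windows of the same length, 8.52% held TTCNNGAA and 7.86% held GAANNTTC. The Trap1 match stood at bases -47 to -40, and 1.79% of all windows held TGACGTCA. The C/EBP-ATF response element TGATGNAA, searched on both strands and found in 3.97% of all windows, had no match in the 8 windows of these 7 genes. Other motifs searched on both strands were CCAAT (37.4% of windows), the NRF1 motif (4.6%) and the ERSE (0.119%), and none of them was in the 3 windows shown. A match is a description of letters, not a site, and no match says nothing about a factor.

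None of the 10 genes passed the test between ANKO and control tissue in either direction. The test was edgeR's quasi-likelihood test with Benjamini-Hochberg adjustment over all 19272 features and a threshold of 0.05, and it called 306 features, 1.59% of those tested (0.488% higher in ANKO, 1.10% lower). An unadjusted p under 0.05 was found for 4 of the 10, against 12.9% of all features tested. They were Hspa9, Lonp1 and Afg3l2, which averaged higher in ANKO, and Trap1, which averaged lower. For 5 of the 10 the TMM-scaled ANKO and control values did not overlap, against 19.4% of all features, and of these 2 were higher and 3 lower in ANKO. Of the 3 lower genes, Hspd1 and Yme1l1 overlapped when scaled by library totals alone. Hspd1 had 2793 of 20419821 counts in ANKO 3 and 2601 of 20304187 in control 3, and Yme1l1 had 2080 and 1944. DESeq2 called 1 of the 10, Trap1, and limma-voom called none. The median log2 fold change was -0.03, with 5 positive values of which that of Htra2 was 0.00, beside a median of 0.00 over all features. Values below are CPM scaled by the trimmed mean of M values (TMM), and fold changes are ANKO over control.

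**Figure D1:**
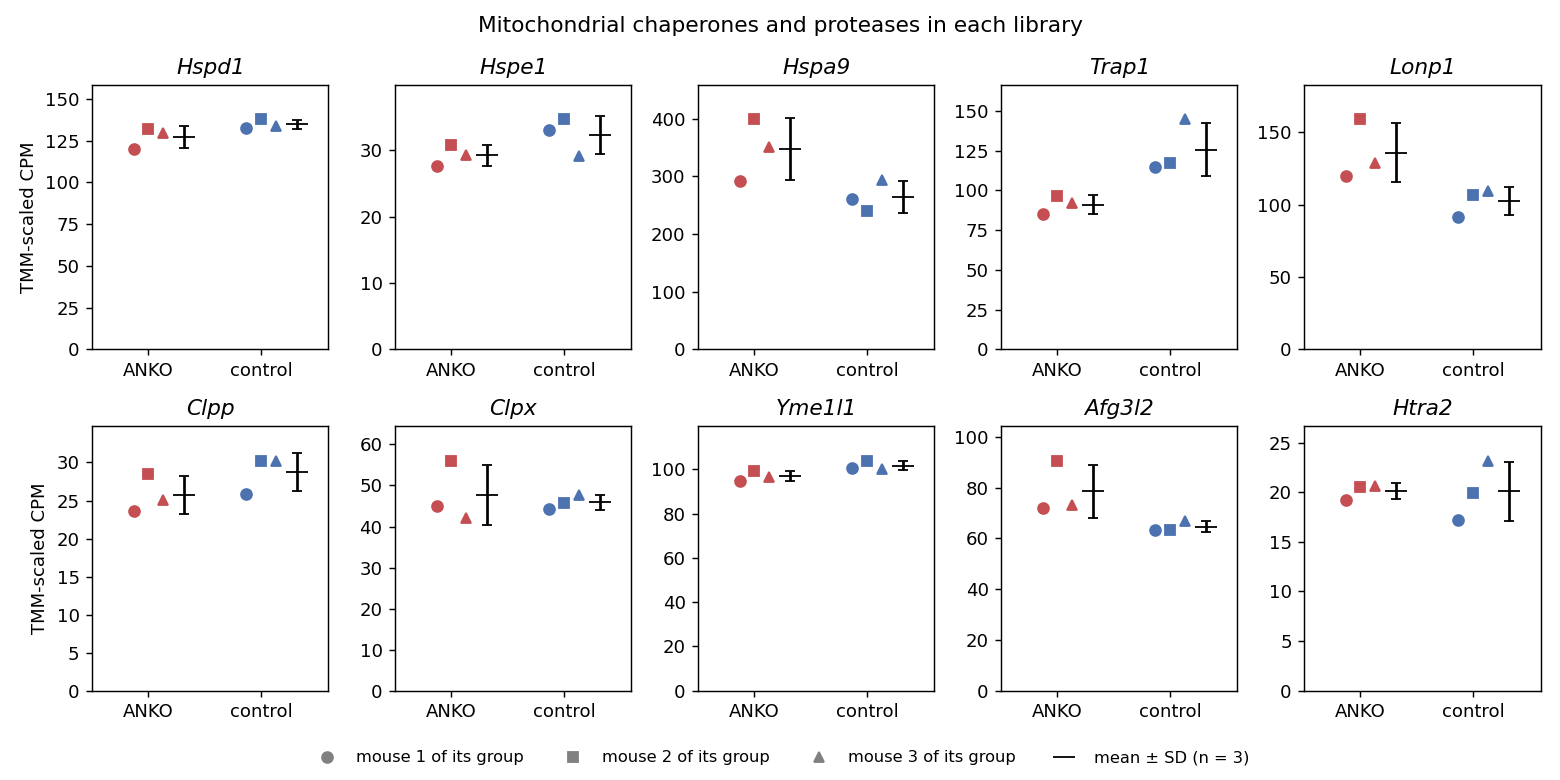
TMM-scaled CPM of the 10 genes in each library, ANKO in red and control in blue, 1 symbol per mouse, with the mean and SD of 3 mice in black. Hspa9, Lonp1 and Afg3l2 average higher in ANKO and Trap1 lower, and the highest values of Hspa9, Lonp1, Clpx and Afg3l2 belong to ANKO 2.

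Among the chaperones, Hspd1 and Hspe1 averaged slightly lower in ANKO, by less than the test could call. Hspd1 (chromosome 1, 55077835 to 55088243, 12 exon blocks) had 119.9, 132 and 129.8 CPM in ANKO 1 to 3 and 132, 138 and 134 CPM in controls 1 to 3. Every ANKO value lay below every control value, by a margin of less than 1 CPM between ANKO 2 and control 1. Its fold change on the log2 scale was -0.08 (SE 0.076, adjusted p = 0.744), with a 95% interval of -0.26 to 0.09. Hspe1 (chromosome 1, 55088132 to 55091307, 4 exon blocks) had 27.6, 30.8 and 29.2 CPM in ANKO 1 to 3, against 33.1, 34.6 and 29.1 CPM in controls 1 to 3. The groups overlapped (log2 fold change -0.14, 95% interval -0.38 to 0.09, adjusted p = 0.648). Per kilobase of exon, Hspd1 stood 2.42, 2.39 and 2.48 times above Hspe1 in ANKO 1 to 3 and 2.23, 2.22 and 2.57 times above it in controls 1 to 3, so the ratio of this pair overlapped between groups. Hspd1 was the member nearest to Hspe1 over the 6 libraries, with a root mean square difference of 0.076 between their log2 CPM values centred on their means. Of 14412 genes compared, 224 (1.55%) were nearer to Hspe1 than that. The nearness was not mutual, since the member nearest to Hspd1 was Yme1l1, at 0.029. Reads of Hspd1 and Hspe1 can be shared with pseudogenes. The 2 lines named as Hspd1 pseudogenes summed to 11.2% of the Hspd1 counts and the 5 of Hspe1 to 15.5% of the Hspe1 counts. Hspd1 and Hspe1 also share 112 exonic bases on opposite strands, and whether the counting used strand is not given in the sources used here.

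Hspa9, the matrix Hsp70 and motor of protein import, averaged 1.31-fold higher in ANKO. Hspa9 (chromosome 18, 34937414 to 34954357) had 292, 399 and 351 CPM in ANKO 1 to 3 and 261, 239 and 293 CPM in controls 1 to 3. The groups overlapped, since ANKO 1 stood below control 3, and the difference did not pass the test (log2 fold change 0.39, SE 0.135, 95% interval 0.08 to 0.70, adjusted p = 0.252). Trap1 (chromosome 16, 4039971 to 4077827), the mitochondrial Hsp90, went the other way. It had 84.9, 96.6 and 91.8 CPM in ANKO 1 to 3 and 115, 117 and 145 CPM in controls 1 to 3. All 3 ANKO values lay below all 3 control values, and control 3 stood apart at the top. Its log2 fold change of -0.46 (SE 0.109, 95% interval -0.71 to -0.21) had an adjusted p of 0.0994 with edgeR, rank 550 by p among the features tested, and an adjusted p of 0.0229 with DESeq2 at a log2 fold change of -0.45. Trap1 is thus called by only 1 of the 3 tools run. Of the Trap1 exon bases 2.1% are shared with Dnase1 on the opposite strand, and Dnase1 had 594 counts over the 6 libraries against 13979 for Trap1.

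**Figure D2:**
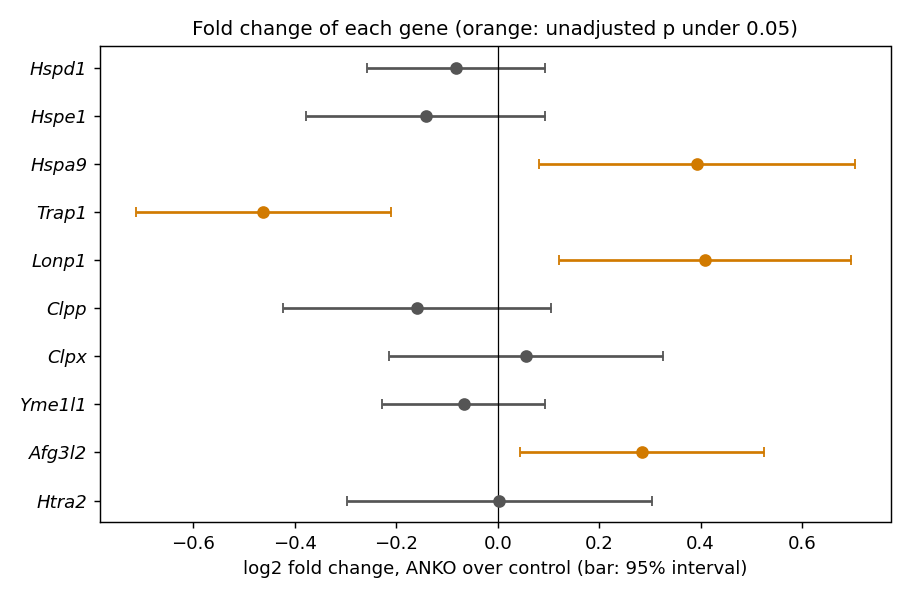
Log2 fold change of each gene, ANKO over control, with the 95% interval of the edgeR fit for that gene alone; orange marks an unadjusted p under 0.05. The intervals of Hspa9, Lonp1 and Afg3l2 lie above 0 and that of Trap1 lies below it, while none of the 10 passes after adjustment over all features.

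Lonp1, the ATP-dependent protease of the matrix, had 120.04, 159 and 129 CPM in ANKO 1 to 3 and 91.2, 107 and 109 CPM in controls 1 to 3. All 3 ANKO values of Lonp1 (chromosome 17, 56614297 to 56626887) lay above all 3 control values, with ANKO 2 highest. The fold was 1.33, and the difference did not pass the test (log2 fold change 0.41, SE 0.124, 95% interval 0.12 to 0.70, adjusted p = 0.196). Afg3l2, a catalytic subunit of the matrix-facing m-AAA protease, had 71.9, 90.6 and 73.1 CPM in ANKO 1 to 3 and 63.2, 63.3 and 67.0 CPM in controls 1 to 3. Afg3l2 (chromosome 18, 67404764 to 67449172) also had separate groups, with ANKO 2 well above the other libraries. On the log2 scale the difference was 0.28 (SE 0.104, 95% interval 0.04 to 0.52, adjusted p = 0.289), and without ANKO 2 it was 0.17. Lonp1 and Afg3l2 were each other's nearest member over the 6 libraries, at a root mean square difference of 0.096 on the log2 scale. Of 14412 genes compared, 56 (0.389%) were nearer to Lonp1 than that and 223 (1.55%) were nearer to Afg3l2.

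The remaining proteases had log2 fold changes between -0.16 and 0.06. Clpp (chromosome 17, 56990305 to 56996188), the peptidase of the ClpXP complex, had 23.7, 28.5 and 25.1 CPM in ANKO 1 to 3 and 25.8, 30.2 and 30.2 CPM in controls 1 to 3 (log2 fold change -0.16, 95% interval -0.42 to 0.10, adjusted p = 0.650). Clpx (chromosome 9, 65294260 to 65330658), its unfoldase, had 44.9, 56.0 and 42.1 CPM in ANKO 1 to 3 and 44.2, 45.6 and 47.8 CPM in controls 1 to 3 (log2 fold change 0.06, 95% interval -0.21 to 0.33, adjusted p = 0.906). Both genes overlapped between groups, and for Clpx the highest and the lowest of the 6 values were both ANKO libraries, so its sign rests on ANKO 2, without which it was -0.08. Yme1l1 (chromosome 2, 23156369 to 23199260), the i-AAA protease, had 94.8, 99.4 and 96.7 CPM in ANKO 1 to 3 and 101, 104 and 100.2 CPM in controls 1 to 3. The Yme1l1 groups were separate by less than 1 CPM, and its interval was the narrowest of the 10 (log2 fold change -0.07, SE 0.070, 95% interval -0.23 to 0.09, adjusted p = 0.774). Htra2 (chromosome 6, 83051266 to 83055273), a serine protease that also binds inhibitors of apoptosis once released, had 19.2, 20.6 and 20.6 CPM in ANKO 1 to 3 and 17.3, 19.9 and 23.2 CPM in controls 1 to 3. The Htra2 values of ANKO lay within the control range (log2 fold change 0.00, 95% interval -0.30 to 0.30, adjusted p = 0.996). Of the Htra2 exon bases 25.6% are shared with Aup1 and 18.2% with Loxl3, both on the opposite strand, so its counts are uncertain.

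The level of these genes spanned about an order of magnitude per kilobase of exon. In RPKM, which is CPM divided by the exon length in kilobases, Hspa9 stood at 80.5 ± 12.4 in ANKO and 61.3 ± 6.30 in control, above Hspd1 at 48.2 ± 2.46 and 51.0 ± 1.03. Trap1 followed at 35.4 ± 2.28 RPKM in ANKO and 48.8 ± 6.44 RPKM in control, and its control values overlapped those of Hspd1, as its ANKO values overlapped those of Lonp1. Lonp1 stood at 31.0 ± 4.65 and 23.4 ± 2.22 RPKM and Clpp at 21.1 ± 2.03 and 23.5 ± 2.07 RPKM in ANKO and control, so Lonp1 and Clpp had separate values in ANKO and overlapping values in control. Hspe1 (19.8 ± 1.10 and 21.9 ± 1.95 RPKM in ANKO and control) overlapped Clpp in both groups. Clpx (13.6 ± 2.11 and 13.1 ± 0.510 RPKM) and Yme1l1 (12.1 ± 0.292 and 12.7 ± 0.256 RPKM) overlapped each other in both groups. Afg3l2 (7.96 ± 1.06 and 6.53 ± 0.219 RPKM) and Htra2 (6.84 ± 0.266 and 6.83 ± 1.01 RPKM) closed the order, with separate values in ANKO and overlapping values in control (SD, n = 3 each). Lengths are the union of all annotated exons, so a gene with long alternative exons, such as Afg3l2 with 9874 bases, reads lower. By mean RPKM over the 6 libraries, Hspa9 stood above 98.0% of the features tested that had a length and Htra2 above 64.3%.

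Ratios within a library do not depend on how libraries are scaled. Trap1 and Hspa9, the mitochondrial Hsp90 and Hsp70, were set against each other after their opposite directions had been seen, so the difference is a description. Per kilobase, Trap1 stood at 0.488, 0.406 and 0.439 of Hspa9 in ANKO 1 to 3 and at 0.737, 0.821 and 0.827 of it in controls 1 to 3. Against Lonp1, the ratio was 1.20, 1.03 and 1.21 in ANKO 1 to 3 and 2.14, 1.87 and 2.25 in controls 1 to 3. Both ratios were lower in every ANKO library than in every control library. For Trap1 over Lonp1 this follows from the 2 genes, whose groups were each separate in opposite directions, so it adds no support. The Clpp to Clpx ratio, between subunits of one complex, was 1.505, 1.453 and 1.70 in ANKO 1 to 3 and 1.67, 1.89 and 1.81 in controls 1 to 3, and the groups overlapped.

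**Figure D3:**
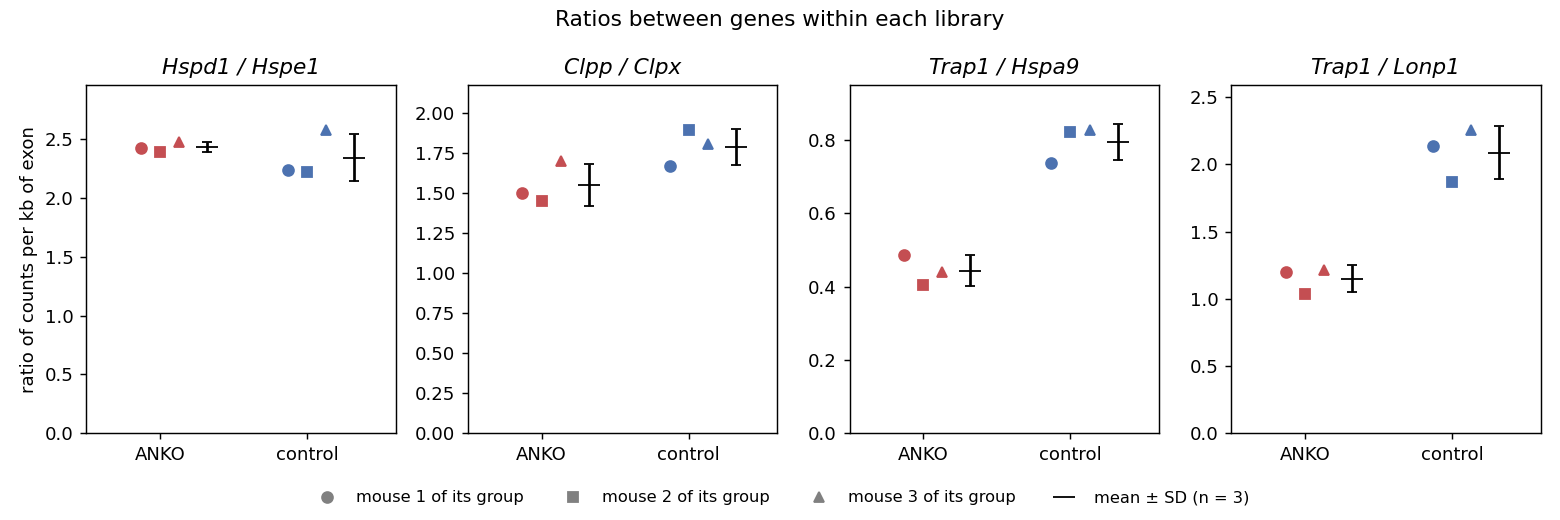
Ratio of counts per kilobase of exon for 4 gene pairs in each library, ANKO in red and control in blue, with the mean and SD of 3 mice in black. Trap1 over Hspa9 (0.406 to 0.488 in ANKO, 0.737 to 0.827 in control) and Trap1 over Lonp1 separate the groups, while Hspd1 over Hspe1 and Clpp over Clpx overlap. The pairs with Trap1 were chosen after the opposite directions of their genes had been seen.

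Values also varied within both groups. All 10 genes were higher in ANKO 2 than in ANKO 1. The highest of the 6 values stood in ANKO 2 for 4 genes, in control 2 for 4 and in control 3 for 2. The lowest stood in ANKO 1 for 5 genes, in ANKO 3 for 1, in control 1 for 3 and in control 2 for 1. Genes of the mitochondrial genome took 2.64%, 3.65% and 3.18% of the counts in ANKO 1 to 3 and 2.74%, 2.74% and 3.50% in controls 1 to 3, with the lowest share in ANKO 1 and the highest in ANKO 2. Muscle RNA, given above, was highest in ANKO 1. With the log2 muscle signal as a covariate the log2 fold changes were 0.38 for Hspa9, 0.40 for Lonp1, 0.30 for Afg3l2 and -0.46 for Trap1, close to the values without it, and none passed the test. Macrophage markers, of which 3 of 15 passed the test as higher and none was at 0, made up 0.118% to 0.154% of the counts in ANKO and 0.0811% to 0.0995% in control libraries. Of the 7 mast cell markers, none of them at 0, 5 were tested and 4 passed as higher, and the list made up 0.0157% to 0.0201% and 0.00641% to 0.0137% of the counts. The part of adipocyte, macrophage and mast cell RNA in the differences of the 10 genes was not tested.

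Some transcription factors of the response passed the test. Of 11 regulators of mitochondrial stress signalling 3 rose and none fell, with a median log2 fold change of 0.08. Atf5 averaged 271 ± 78.6 CPM in ANKO and 97.0 ± 5.42 CPM in control (log2 fold change 1.48, adjusted p = 0.0171). Atf4 averaged 114 ± 9.86 CPM in ANKO and 78.1 ± 4.73 CPM in control (log2 fold change 0.55, adjusted p = 0.0304), and Ddit3 had a log2 fold change of 0.90 (adjusted p = 0.0418). The other 8 did not pass the test. They included Hsf1, the heat shock factor, at 0.08, Dele1, which carries the signal of mitochondrial stress to the cytosol, at 0.00, and Eif2ak1, the kinase that Dele1 activates, at 0.01. The 3 calls became 1 without ANKO 2 or control 3 and 0 without ANKO 3, control 1 or control 2. With the muscle covariate none of the 3 was called, while their log2 fold changes were 1.46 for Atf5, 0.54 for Atf4 and 0.92 for Ddit3, close to those without it. Of 17 alternatives, 11 called Atf5, 11 called Atf4 and 8 called Ddit3. With limma-voom Ddit3 was not called (adjusted p = 0.0502). A test of the difference between regulators and effectors was not made.

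The other genes of mitochondrial protein handling also had no calls. Of 11 co-chaperones and matrix folding factors none passed with edgeR, limma-voom or DESeq2, 2 had an unadjusted p under 0.05 and the median log2 fold change was 0.04. Dnajc15, a co-chaperone of Hspa9 at the import channel, had the smallest p, at 29.7 ± 3.86 CPM in ANKO and 40.3 ± 8.64 CPM in control (log2 fold change -0.44, adjusted p = 0.309, and -0.24 without control 3). Grpel1, the nucleotide exchange factor of Hspa9, had a log2 fold change of 0.12 (adjusted p = 0.826). A further list held 15 genes, proteases and peptidases apart from Ociad1, which is not known as a protease. None of its genes passed with any of the 3 tools, 2 had an unadjusted p under 0.05, and the median was -0.09 on the log2 scale. Its smallest p was that of the aminopeptidase Xpnpep3, at 22.7 ± 1.46 CPM in ANKO and 28.5 ± 2.13 CPM in control (log2 fold change -0.32, adjusted p = 0.218). Oma1, the stress-activated protease that cleaves Opa1 and Dele1, averaged 14.7 and 18.05 CPM in ANKO and control (log2 fold change -0.30, adjusted p = 0.398). Of 7 scaffolds and regulators of the inner membrane proteases none passed with any of the 3 tools or had an unadjusted p under 0.05, and Stoml2 had the smallest p (log2 fold change -0.14, adjusted p = 0.684). Of 15 tested subunits of the import translocases none passed with any of the 3 tools and 2 had an unadjusted p under 0.05, the smallest for Tomm7 of the outer membrane (log2 fold change -0.44, adjusted p = 0.187). Of 16 genes of general mitochondrial content none passed with any of the 3 tools and 1 had an unadjusted p under 0.05. This was the coactivator Ppargc1a (log2 fold change -0.55, adjusted p = 0.357, and -0.29 without control 3), and the median of the list was -0.01.

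Chaperones of other compartments gave 1 call. Of 19 cytosolic chaperones Hspb1, a small heat shock protein, rose and none fell, and the median log2 fold change was 0.09. Hspb1 averaged 44.8 ± 6.13 CPM in ANKO and 24.9 ± 0.876 CPM in control (log2 fold change 0.85, adjusted p = 0.0139), and it was not called without control 2 (adjusted p = 0.0652). Of 15 chaperones of the endoplasmic reticulum none passed with any of the 3 tools or had an unadjusted p under 0.05, and the median was 0.06. The relatives of single members did not pass with edgeR. Hspa8, the cytosolic Hsp70, averaged 733 and 576 CPM in ANKO and control (log2 fold change 0.35, adjusted p = 0.328), and Hspa5, the Hsp70 of the endoplasmic reticulum, had a log2 fold change of 0.24 (adjusted p = 0.496, and 0.37 without control 2). The Hsp90 relatives of Trap1 had log2 fold changes of 0.19 for Hsp90ab1, 0.09 for Hsp90aa1 and 0.05 for Hsp90b1, each with an adjusted p of 0.579 or above. Spg7 and Afg3l1, which form m-AAA proteases with Afg3l2, had log2 fold changes of -0.12 and 0.07, and the peroxisomal Lonp2 one of -0.18. Htra1, a secreted relative of Htra2, averaged 85.6 and 132 CPM in ANKO and control (log2 fold change -0.63, adjusted p = 0.105 with edgeR), and DESeq2 called it. Htra3, another relative, went the other way, at 238 and 190 CPM in ANKO and control (log2 fold change 0.33, adjusted p = 0.440 with edgeR).

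**Figure D4:**
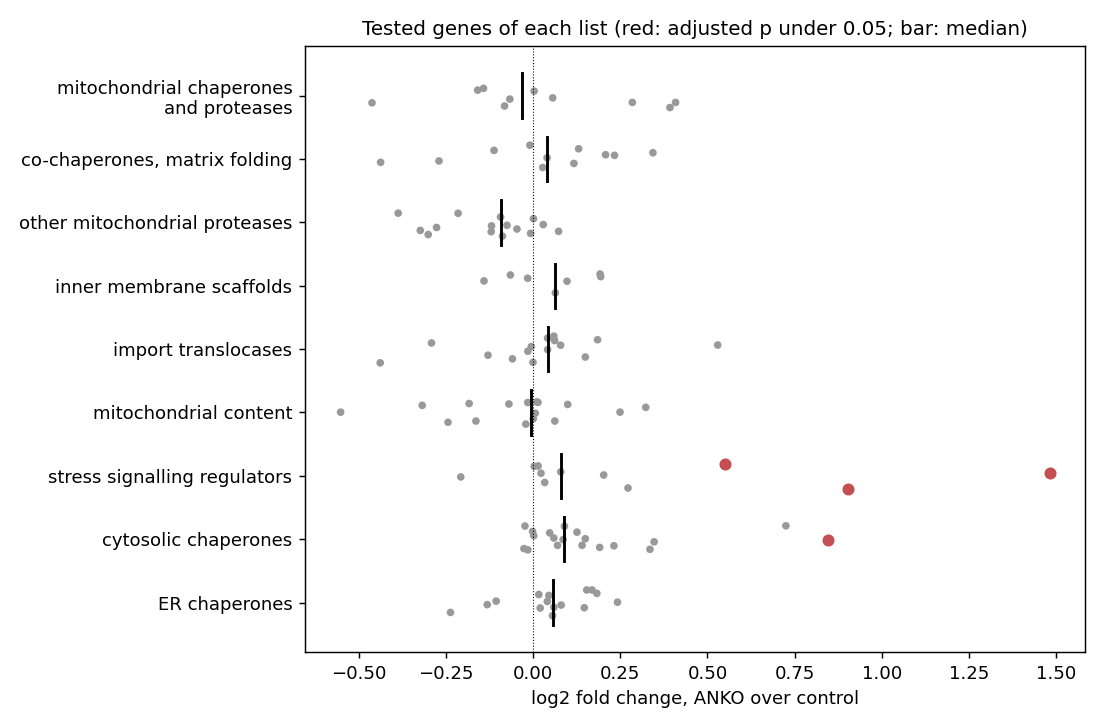
Log2 fold change, ANKO over control, of every tested gene in 9 lists, 1 point per gene with vertical scatter for display only, the median as a bar and genes with an adjusted p under 0.05 in red. The red points are Atf4, Atf5 and Ddit3 among the regulators of mitochondrial stress signalling and Hspb1 among the cytosolic chaperones, and the other lists hold none.

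The genes whose profile over the 6 libraries was nearest to the mean profile of the 10 were Sdr39u1, Cog2, Oxa1l, Eif4g1 and Psmd2. Their root mean square differences from it were 0.020 to 0.025 on the log2 scale, among 14412 genes compared. The mean profile itself ranged from -0.10 in ANKO 1 to 0.15 in ANKO 2 around its own mean.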

How the data were processed

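RNA was measured by sequencing after rRNA depletion with Ribo-Zero Gold, per the labels' protocols. The deposited values are raw read counts per gene symbol, 1 column per mouse, made by the authors with STAR 2.0.4b, Subread and featureCounts 1.45 on GRCm38, per the submitters' processing notes. The sources used here give neither the annotation nor the strand setting. Of 40757 lines, 329 exact repeats were dropped. Groups came from the sample titles, and the design text gives 3 mice per group.

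Counts were tested across all genes with edgeR 4.0.16 in R 4.3.3 (filterByExpr with a minimum count of 10 and a minimum total of 15, TMM, robust quasi-likelihood F test, Benjamini-Hochberg adjustment, threshold 0.05). The step was also run on simulated data. The changes planted there were larger than those of the 10 genes, so it does not show whether changes of their size would be called. SEs were derived from the log2 fold change and the F statistic, and the common biological coefficient of variation was 0.228. DESeq2 1.42.0 and limma 3.58.1 were alternatives, with other scalings and filters, each library left out, a muscle covariate and a replicate block. Gene positions and exon lengths came from GENCODE M21 on GRCm38, which held 40221 of 40322 symbols, and promoter sequences from RefSeq, GRCm38.p6. The 10 genes, the lists and the rule for named genes were chosen with earlier results of these data known. The rule took all 10 genes, Nampt, the 3 called genes with the smallest p of each list or the 1 with the smallest p, relatives of the 10, and the 5 nearest profiles. Grpel1, Hsf1, Dele1, Eif2ak1, Oma1 and the ratios were added after their values were seen.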

Additional observations from a re-analysis of the deposited data

How the results depend on the processing

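None of the 10 genes was called higher in any of 17 alternatives, and 1, Trap1, was called lower by DESeq2 alone. The log2 fold changes ranged from 0.28 to 0.52 for Hspa9, 0.28 to 0.51 for Lonp1, 0.17 (without ANKO 2) to 0.36 for Afg3l2 and -0.52 to -0.34 for Trap1, with adjusted p of 0.125 to 0.509, 0.0932 to 0.414, 0.212 to 0.534 and 0.0229 to 0.292. With 1 library left out, Clpx ranged from -0.076 to 0.14 and Htra2 from -0.096 to 0.13, and Htra2 was -0.0047 with the muscle covariate. The replicate numbers of the titles are not stated to pair the mice. Correlations of deviations from the group mean were 0.065, -0.034 and -0.041 for like numbers and -0.085 to 0.105 for unlike numbers. With 3 libraries per group they cannot decide whether mice were paired. The fit with the replicate block called 62 genes higher, against 94 without it, called none of the 10, and no longer called Atf5 and Ddit3, whose log2 fold changes were 1.44 and 0.92 (adjusted p = 0.0646 and 0.0708). Genes called higher numbered 167 without a low-count filter, 388 with DESeq2, 49 with the muscle covariate and 20 to 107 with 1 library left out. Genes called lower, 212 at first, numbered 498 with DESeq2, 112 with the muscle covariate and 55 to 221 with 1 library left out. DESeq2 called Htra1 as well. The fits that left 1 library out also had fewer libraries, and the cause of these shifts was not tested. With 3 mice per group the median SE was 0.112 for the 10 genes and 0.186 over all features on the log2 scale.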
